A study of Mus musculus with 13 samples.

Results

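The 10 genes described here encode enzymes and chaperones that modify and fold collagen chains inside the cell before secretion. They were chosen by name for their function (P4ha1, P4ha2, P4ha3, P4hb, P3h1, Plod1, Plod2, Plod3, Serpinh1 and Fkbp10), with no threshold on their values. Earlier results of these data were known when they were chosen. All 10 were among the 23211 mouse genes of the count matrix, and all 10 passed the filter on low counts that left 13294 genes for testing. The study measured RNA in cells sorted from tissue next to implants in the mouse tibia. Per the labels, the sort took lineage-negative cells with leptin receptor on their surface, the usual mark of marrow stromal cells. The fibrous group has 7 libraries, from fibrous tissue at implants labelled PMMA, and the bone group has 6, from bone at implants labelled Pressfit. Both groups carried an implant, so neither is an untouched bone, and tissue and implant label change together and cannot be told apart. The sources used here do not give genotype, strain, age, sex, time after surgery or whether the libraries stem from separate animals. A p-value here thus reflects spread between libraries alone, and part of that spread may be technical.

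Collagen chains enter the endoplasmic reticulum (ER) unfolded. Prolyl 4-hydroxylases modify prolines so that the triple helix is stable at body temperature, lysyl hydroxylases modify lysines that later carry cross-links and sugars, and prolyl 3-hydroxylase modifies a small number of prolines. Chaperones bind the chains or the finished helix until it leaves the ER. Bone and fibrous scar are both built mainly of type I collagen, and in humans loss of several of these genes causes brittle bones.

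Totals ran from 18056208 to 44302166 counts in fibrous libraries and from 16162321 to 43217004 in bone libraries. Library names fall into an L002 series (fibrous 1 to 5, bone 1 to 4) and an XY9274 series (fibrous 6 and 7, bone 5 and 6). Fibrous 5, bone 3 and bone 4 have Lin in their names. In 5 libraries (fibrous 1 and 5, bone 3, 4 and 5) Lepr, the gene of the sorted receptor, lay under 5 normalised CPM (counts scaled to library size), against their label. The 6 stromal markers summed to between 14.0 and 40.4 CPM in those 5 libraries and to between 562 and 10622 CPM in the other 8. The 6 erythroid markers summed to between 7147 and 233649 CPM in fibrous libraries and to between 1406 and 591679 CPM in bone libraries. In these bulk libraries, fewer cells of a type and less RNA per cell cannot be told apart.

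Compared per kilobase of exon, Serpinh1 and P4hb stood far above the other 8 genes. Median levels over the 13 libraries were 338 CPM per kb for Serpinh1 and 253 for P4hb. Fkbp10 followed at 40.3 CPM per kb, P4ha1 at 18.2 and P4ha2 at 13.1. P3h1 at 9.92, Plod3 at 9.13, Plod2 at 8.88 and Plod1 at 8.87 lay close together, and P4ha3 was last at 2.35 CPM per kb. The order of neighbours was not fixed: Serpinh1 lay above P4hb in 9 of 13 libraries, P3h1 above Plod3 in 8 and Plod3 above Plod2 in 5. P4hb lay above Fkbp10 in all 13. Serpinh1 and P4hb together made up 73.3 to 94.0% of the summed level of the 10 genes per kb. Col1a1, the main type I collagen chain, had a median of 1546 CPM per kb and lay above Serpinh1 in 12 libraries.

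**Figure D1:**
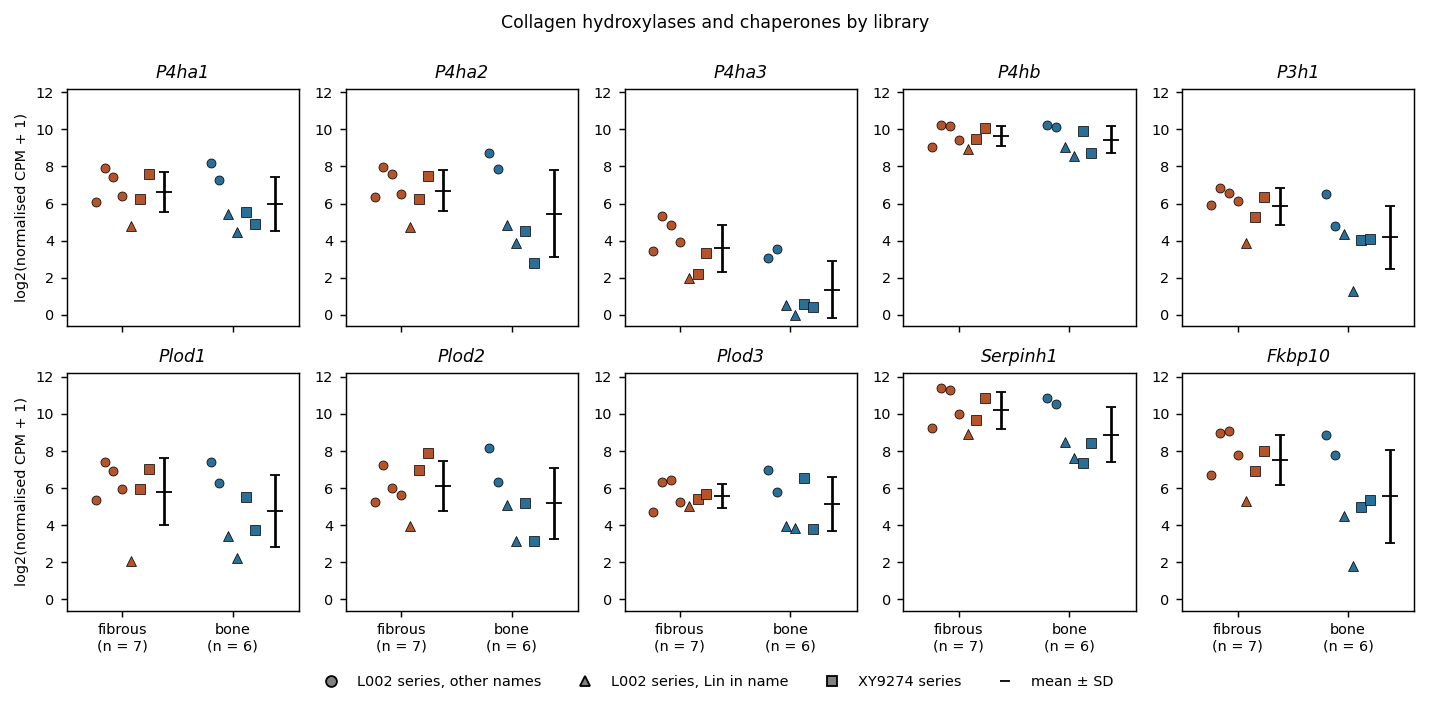
Each panel shows 1 gene as log2(normalised CPM + 1) in every library, fibrous left and bone right, with mean ± SD beside the points; circles, triangles and squares mark other L002, Lin-named L002 and XY9274 libraries. The groups overlap for all 10 genes, and P4hb spreads least, from 486 to 1227 CPM in fibrous and from 383 to 1201 CPM in bone libraries.

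Prolyl 4-hydroxylase joins a catalytic alpha subunit, encoded by P4ha1, P4ha2 or P4ha3, to the beta subunit P4hb, which is also a general protein disulfide isomerase. P4ha1 (ENSMUSG00000019916, chromosome 10, 59323296 to 59373304, mm10, plus strand) had a lowest, median and highest level of 26.9, 85.4 and 240 CPM in fibrous libraries and of 21.2, 44.8 and 287 CPM in bone libraries. P4ha2 (ENSMUSG00000018906, chromosome 11, 54100095 to 54131665, plus strand) lay at 25.4, 91.0 and 250 CPM in fibrous and at 5.97, 24.9 and 427 CPM in bone libraries. For both, bone 1 was the highest library of all and fibrous 2 the next. The groups overlapped in part: bone 4 lay below every fibrous library for both genes, and bone 5 and 6 did so for P4ha2. P4ha3 (ENSMUSG00000051048, chromosome 7, 100285520 to 100319699, plus strand), the third alpha subunit, lay at 2.95, 9.84 and 39.4 CPM in fibrous libraries. In bone libraries it lay at 0, 0.483 and 10.8 CPM. Bone 3, 4, 5 and 6 were all below the lowest fibrous library, while bone 1 and 2 lay within the fibrous range. Bone 4 had 0 counts of P4ha3, which at its depth allows up to 0.301 CPM. P4hb (ENSMUSG00000025130, chromosome 11, 120560298 to 120573253, minus strand) lay at 486, 724 and 1227 CPM in fibrous and at 383, 755 and 1201 CPM in bone libraries, the narrowest range of the 10 genes.

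The division of the alpha subunits among the 3 genes was compared as a share within each library, which does not depend on library size. The upstream sequences of the 3 genes are shown because, of their 3 shares, only that of P4ha3 passed its test over all 13 libraries. They are the 250 bases before the RefSeq start of each gene (assembly GRCm38.p6, which is mm10), at chr10:59323046-59323295 for P4ha1, chr11:54100674-54100923 for P4ha2 and chr7:100285270-100285519 for P4ha3, all on the plus strand. The P4ha2 sequence lies inside the gene span given above, which begins at 54100095. Those of P4ha1 and P4ha3 end directly before their gene spans, so the 3 regions are not alike. Capitals mark ACGTG, the core letters of hypoxia response elements, on either strand.
P4ha1: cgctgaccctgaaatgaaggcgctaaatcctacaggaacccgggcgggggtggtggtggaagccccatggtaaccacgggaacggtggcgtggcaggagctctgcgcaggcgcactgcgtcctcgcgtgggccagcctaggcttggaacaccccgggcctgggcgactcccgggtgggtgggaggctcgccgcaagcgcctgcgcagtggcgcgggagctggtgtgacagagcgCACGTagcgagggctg
P4ha2: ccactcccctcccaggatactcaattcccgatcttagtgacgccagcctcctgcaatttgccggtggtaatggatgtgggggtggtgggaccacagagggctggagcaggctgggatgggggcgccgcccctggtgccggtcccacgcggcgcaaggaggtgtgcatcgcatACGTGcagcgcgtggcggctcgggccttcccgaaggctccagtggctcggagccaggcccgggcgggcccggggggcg
P4ha3: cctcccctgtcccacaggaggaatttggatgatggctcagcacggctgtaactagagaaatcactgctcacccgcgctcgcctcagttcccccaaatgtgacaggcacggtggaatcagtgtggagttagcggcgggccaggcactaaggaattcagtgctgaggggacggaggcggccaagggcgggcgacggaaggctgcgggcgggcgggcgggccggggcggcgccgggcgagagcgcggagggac
P4ha1 and P4ha2 each hold 1 match and P4ha3 holds 0. P4ha3 instead has 5 matches on either strand to GGGCGG, the core of a GC box, counting overlaps, against 1 in P4ha1 and 2 in P4ha2. GC content is 69.6% for P4ha1, 70.0% for P4ha2 and 67.2% for P4ha3. Of the 10 genes 8 have an upstream sequence in the RefSeq table, all but Plod2 and Fkbp10. ACGTG occurs in 6 of those 8 genes and in 16.6% of the 32851 mouse sequences of this kind, and GGGCGG in 7 of 8 genes and 32.7% of sequences. The units differ: a gene counts if any of its sequences matches, while the percentages are per sequence. P3h1 has more than 1 sequence. Its ACGTG matches lie only in the sequence at chr4:119233579-119233828, which is inside the gene. Its GGGCGG matches lie only in the sequence just before the gene start. The 32851 sequences were not matched to the 8 genes for GC content, and whether either motif is in excess was not tested.

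P4ha3 took a larger part of the alpha subunit transcripts in fibrous than in bone libraries. In counts per kb, its share was 9.67, 11.3, 10.996, 11.5, 8.16, 3.62 and 3.77% in fibrous 1 to 7. In bone 1 to 6 it was 1.67, 4.39, 0.955, 0, 1.10 and 1.44%. All 5 fibrous libraries of the L002 series lay above every bone library, and the 2 fibrous libraries of the XY9274 series lay below bone 2 only. The mean share was 8.44% ± 3.44 (SD, n = 7) in fibrous and 1.59% ± 1.48 (SD, n = 6) in bone libraries, a difference of 6.85 percentage points (2-sided exact permutation p = 0.00350 over 1716 splits, adjusted p = 0.0245 over 7 share measures). Exchanging libraries only within their name series gave p = 0.00132 by exact permutation, the smallest that its 756 splits can give (adjusted p = 0.00926). The difference was 8.59 points within L002 (exact permutation p = 0.00794, the smallest possible there, adjusted p = 0.0556) and 2.43 points within XY9274 (exact permutation p = 0.333, the smallest that 2 against 2 can give). That P4ha3 had a higher level in fibrous libraries was known when this measure was chosen, so the test is no independent support for it. Without the 3 Lin-named libraries the difference was 6.34 points (adjusted exact permutation p = 0.133), and without the 5 libraries low in Lepr it was 5.75 points (adjusted exact permutation p = 0.5). Leaving out those 5 libraries keeps 5 fibrous and 3 bone libraries, where no unadjusted p under 0.0179 can be reached. The P4ha3 counts behind these shares ran from 48 to 1272 in fibrous and from 0 to 260 in bone libraries. In bone 4, 0 of 349 alpha subunit counts were P4ha3, which allows up to 0.860% of counts, and in fibrous 5 it was 48 of 898 counts (5.35%, 95% Wilson interval 4.06 to 7.02%). These intervals cover counting error only, since reads without molecular identifiers are not independent molecules.

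P4ha1 was the most abundant alpha subunit per kb in 12 of 13 libraries, and P4ha2 was slightly above it in bone 2. That order depends on dividing by merged exon length. In raw counts P4ha2 lay above P4ha1 in fibrous 1, 2, 3 and 4 and in bone 1 and 2. The P4ha1 share averaged 54.4% ± 3.77 in the 7 fibrous and 66.4% ± 15.2 in the 6 bone libraries (SD; exact permutation p = 0.0682, adjusted p = 0.239). Bone 1 and 2, at 49.6 and 47.5%, lay below all 7 fibrous libraries, while bone 3 to 6, at 69.6 to 86.8%, lay above them all. Without bone 2 the difference of -12.0 points became -15.8 and passed (adjusted exact permutation p = 0.0398). The P4ha2 share averaged 37.1% ± 1.66 in fibrous libraries, where it ran only from 35.3 to 40.4%. In bone libraries it averaged 32.0% ± 14.3 and ran from 11.7% in bone 6 to 48.7% in bone 1. The alpha subunits summed per kb, set against P4hb, gave a mean log2 ratio of -2.65 ± 0.63 in the fibrous and -3.40 ± 1.18 in the bone group (SD, exact permutation p = 0.175, adjusted p = 0.408). Both groups overlapped, with the highest ratio in bone 1 (-1.58) and the lowest in bone 5 (-4.52).

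**Figure D2:**
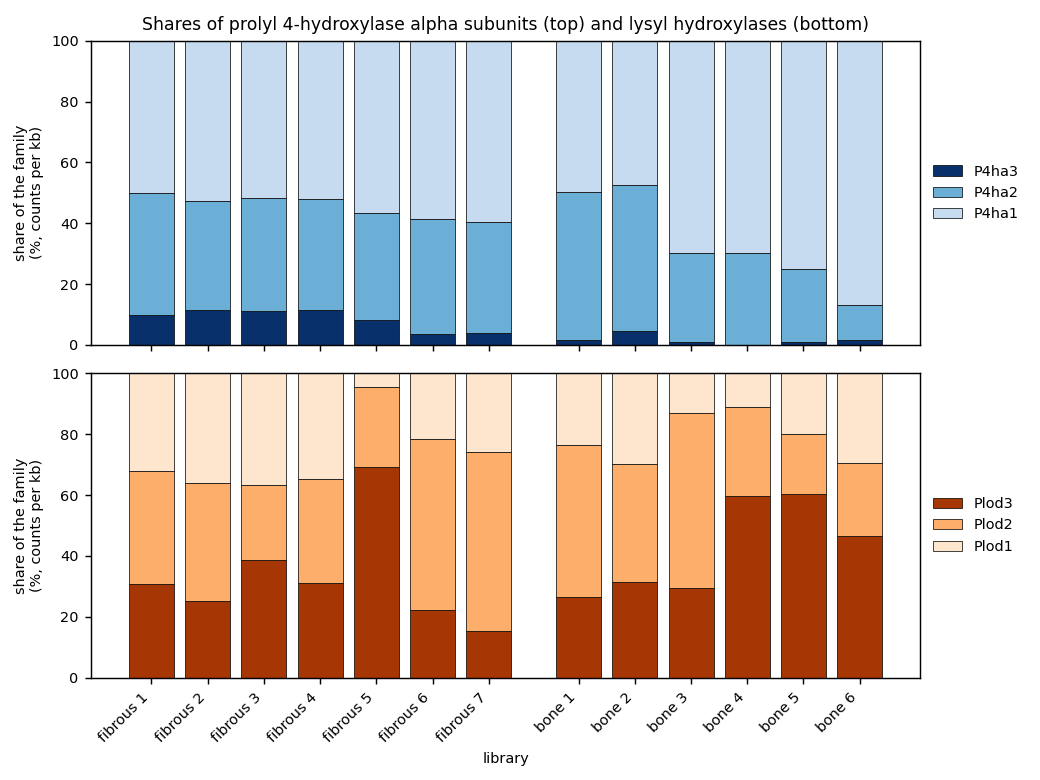
Stacked bars give, per library, the share in percent (counts per kb of exon) of P4ha1, P4ha2 and P4ha3 in their sum (top) and of Plod1, Plod2 and Plod3 in theirs (bottom), fibrous libraries left and bone libraries right. The P4ha3 part is 8.16 to 11.5% in fibrous 1 to 5 but 3.62 and 3.77% in fibrous 6 and 7. In bone libraries it is at most 4.39%. Plod3 takes 69.2% in fibrous 5 and 60.4% in bone 5.

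The lysyl hydroxylases differ in their targets: Plod1 acts on lysines of the helix, Plod2 on those of the telopeptides at its ends, and Plod3 also adds sugars to hydroxylysine. Plod1 (ENSMUSG00000019055, chromosome 4, 147909753 to 147936767, minus strand) had a lowest, median and highest level of 3.14, 61.3 and 172 CPM in fibrous and of 3.71, 29.0 and 168 CPM in bone libraries. The lowest were fibrous 5 and bone 4, both Lin-named, and the highest fibrous 2 and bone 1. Plod2 (ENSMUSG00000032374, chromosome 9, 92542223 to 92608428, plus strand) lay at 14.5, 64.5 and 234 CPM in fibrous and at 7.83, 34.9 and 285 CPM in bone libraries. Plod3 (ENSMUSG00000004846, chromosome 5, 136987019 to 136996648, plus strand) lay at 25.6, 41.2 and 85.0 CPM in fibrous and at 12.9, 34.5 and 127 CPM in bone libraries. For all 3 genes the highest bone library was bone 1 and the groups overlapped, with bone 5 second for Plod3 only. Plod3 shares 529 exon bases with Znhit1 on the opposite strand, Plod2 shares 346 with Gm38391 and Fkbp10 shares 193 with Nt5c3b, so part of their counts could belong to the partner if strand was not used.

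Which lysyl hydroxylase was most abundant per kb changed between libraries. Plod2 led in fibrous 1, 2, 6 and 7 and in bone 1, 2 and 3, Plod3 in fibrous 3 and 5 and in bone 4, 5 and 6, and Plod1 in fibrous 4. In raw counts, not divided by exon length, Plod1 led in fibrous 1, 2, 3 and 4, and the leader in every other library was the same. The Plod2 share reached 56.0 and 58.9% in fibrous 6 and 7, against 19.7 and 23.8% in bone 5 and 6 of the same XY9274 series. Within L002 it ran the other way, with 24.6 to 38.9% in fibrous and 29.3 to 57.5% in bone libraries. Over all libraries the mean Plod2 share was 39.4% ± 13.4 in the fibrous and 36.5% ± 15.0 in the bone group (SD, exact permutation p = 0.703, adjusted p = 0.703). Plod1 averaged 27.4% ± 11.5 in the fibrous and 21.2% ± 8.02 in the bone group (SD, exact permutation p = 0.287, adjusted p = 0.430). Plod3 averaged 33.2% ± 17.5 in the fibrous and 42.3% ± 15.3 in the bone group (SD, exact permutation p = 0.338, adjusted p = 0.430). None of the 3 shares passed, and the Plod counts in bone 4 were few: 133 of 248 were Plod3 (53.6%, 95% Wilson interval 47.4 to 59.7%).

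P3h1, the 3-hydroxylase that works in a complex with Crtap and the isomerase Ppib, and the 2 chaperones had higher medians in fibrous libraries. P3h1 (ENSMUSG00000028641, chromosome 4, 119232915 to 119248975, plus strand) had a lowest, median and highest level of 13.7, 69.2 and 113 CPM in fibrous and of 1.40, 17.9 and 90.7 CPM in bone libraries. Bone 4 lay below every fibrous library, bone 2, 3, 5 and 6 below every one but fibrous 5, and bone 1 below fibrous 2 and 3 only. Serpinh1 (ENSMUSG00000070436, chromosome 7, 99345376 to 99353239, minus strand), the collagen-specific chaperone HSP47, lay at 491, 1025 and 2664 CPM in fibrous and at 163, 352 and 1852 CPM in bone libraries. Bone 3 to 6 lay below all 7 fibrous libraries, and bone 1 and 2 lay above fibrous 1, 4, 5 and 6. Fkbp10 (ENSMUSG00000001555, chromosome 11, 100415697 to 100424824, plus strand), an ER prolyl isomerase that assists collagen folding, lay at 38.5, 217 and 535 CPM in fibrous and at 2.51, 35.5 and 469 CPM in bone libraries. Bone 4 was far below all others, and fibrous 5, the lowest fibrous library, lay below bone 1, 2 and 6.

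Tested across all genes, 9 of the 10 had a log2 fold change of fibrous over bone above 0, against 51.9% of all genes, and 0 of the 10 passed an adjusted p of 0.05 by edgeR's quasi-likelihood test (background 0%). P4ha3 had the largest value, 2.55 (SE 1.07, unadjusted p = 0.0331, adjusted p = 0.873 by edgeR). It was the only 1 of the 10 with an unadjusted p under 0.05 in edgeR, where 4.78% of genes had one and 2.81% one with a higher fibrous level, and in DESeq2, where 9.89% did. DESeq2 called 0 of the 10 at an adjusted p of 0.05 (background 1.30%, and 1.14% for genes higher in fibrous libraries). In limma-voom 3 of the 10 had an unadjusted p under 0.05 (background 8.66%) and 0 passed. P3h1 followed with 1.29 (SE 0.69), Fkbp10 with 1.16 (SE 0.94) and Serpinh1 with 1.12 (SE 0.64). Plod1 was at 0.72 (SE 0.90), P4ha2 at 0.48 (SE 0.95), P4ha1 at 0.47 (SE 0.67), Plod2 at 0.26 (SE 0.95), P4hb at 0.13 (SE 0.35) and Plod3 at -0.07 (SE 0.59). Their adjusted p by edgeR lay between 0.873 and 0.988, so none of these differences passed after adjustment over all genes tested. The median of the 10 was 0.60 and that of all genes 0.03. Col1a1 itself was at 1.36 (SE 0.90, adjusted p = 0.873 by edgeR).

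The log2 fold change had a higher value within the XY9274 series than within L002 for 9 of the 10 genes, all but Plod3. The median of the 10 log2 fold changes was 2.08 within XY9274 and 0.13 within L002, while over all genes the medians were -0.11 and -0.01. Plod2 was at 2.94 (SE 0.92) within XY9274 and at -0.74 (SE 0.91) within L002, and P4ha2 at 3.07 (SE 0.89) and -0.49 (SE 0.94). The interaction of series and group was 3.73 for Plod2 (SE 1.68, unadjusted p = 0.0472 by edgeR, the only 1 of the 10 under 0.05, background 2.20%) and 3.62 for P4ha2 (SE 1.72, unadjusted p = 0.0579). It passed for 0 of the 10 after adjustment by edgeR (background 0%, adjusted p = 1.00). Only Plod3 had a value below 0 in both series, -0.27 (SE 0.99) in XY9274 and -0.04 (SE 0.69) in L002. P4ha3 was above 0 in both, at 3.76 (SE 1.00) and 2.01 (SE 1.33).

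**Figure D3:**
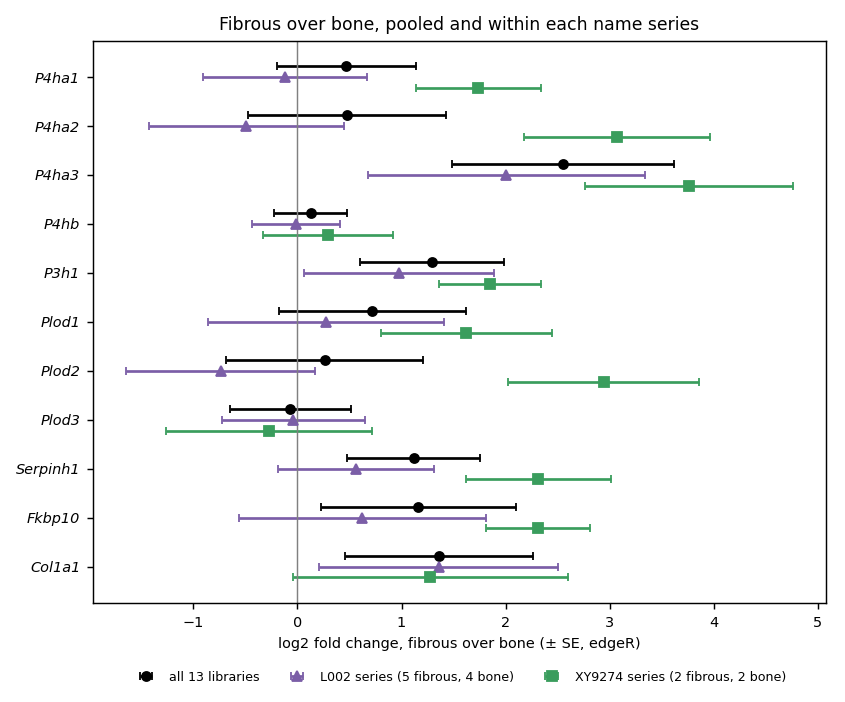
Points are edgeR log2 fold changes of fibrous over bone with ± SE for the 10 genes and Col1a1, from all 13 libraries (black), the L002 series (purple) and the XY9274 series (green). P4ha3 has the largest value in all libraries (2.55), and P4ha2 and Plod2 lie above 2.9 in XY9274 but below 0 in L002.

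Markers of other cells moved with the same libraries. The 6 osteoblast markers summed to 1014 to 6951 CPM (median 2915) in fibrous and to 259 to 5435 CPM (median 623) in bone libraries, and bone 1 and 2, the highest pair of bone libraries for 9 of the 10 genes, held 5435 and 3743 CPM. The 6 chondrocyte markers had medians of 12208 CPM in the fibrous and 3456 CPM in the bone group, and were highest in fibrous 7 and bone 1, the highest libraries of their groups for Plod2. The 7 neutrophil markers had medians of 7218 and 29686 CPM in fibrous and bone libraries, the 6 pan-leukocyte markers of 369 and 1102 CPM, and the 5 B and plasma cell markers of 61.9 and 629 CPM. Bone 5, where P4hb held 72.5% of the summed level of the 10 genes and Serpinh1 14.1%, had the highest neutrophil, pan-leukocyte and B and plasma cell sums of all libraries, at 89186, 6044 and 9190 CPM. The 4 endothelial markers stayed under 44.2 CPM and the muscle markers, 2 of 4 in the matrix, under 38.3 CPM in sum in all libraries. Single markers were at 0 counts: Pdgfra in fibrous 5 and bone 4, Runx2 and Ptprc in bone 4, Jchain and Mzb1 in bone 1, and the endothelial Cdh5 in 10 of 13 libraries. When erythroid and pan-leukocyte scores entered as covariates, the log2 fold change was 2.01 for P4ha3, 0.83 for P3h1, 0.57 for Serpinh1 and -0.04 for P4ha1, and the median of the 10 was 0.19. The part of the other cell types in the differences was not tested.

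Other genes of intracellular procollagen maturation had log2 fold changes of fibrous over bone mostly above 0, where 51.9% of all genes lay above 0. Of the 20 in the list all were tested, 17 lay above 0 and 3 below, and the median was 0.54. By edgeR 0 passed (background 0%) and 0 had an unadjusted p under 0.05 (background 4.78%), while by limma-voom 3 of the 20 had one (background 8.66%). Creb3l1, a transcription factor of the secretory pathway in bone cells, was at 1.25 (SE 0.67), Sec24d, a coat component of collagen export vesicles, at 1.03 (SE 0.67), Mia2, a cargo receptor at ER exit sites, at 0.49 (SE 0.31) and Tmem38b, an ER cation channel, at -0.94 (SE 0.60). All 9 fibrillar collagen chains lay above 0 with a median of 0.91. Of these 0 passed by edgeR, DESeq2 or limma-voom, while an unadjusted p under 0.05 was reached by 1 in edgeR (background 4.78%), 0 in DESeq2 (background 9.89%) and 7 in limma-voom (background 8.66%). DESeq2 gave no p for Col5a3 and Col11a2. Col5a3 was at 5.88 (SE 2.36, unadjusted p = 0.0276 by edgeR), Col1a2 at 1.21 (SE 0.87) and Col5a1 at 0.59 (SE 0.35). Col5a3 had only 0 to 2 counts in fibrous 1 and 5 and in bone 1, 2, 3 and 4, against 1392 in fibrous 2. Its log2 fold change was 0.99 (SE 0.70) within XY9274, and it had no value within L002. Of the 12 general ER chaperones tested, out of 14 listed, 8 lay above 0 and 4 below, with a median of 0.18, and 1 had an unadjusted p under 0.05 by limma-voom and 0 by edgeR. Hspa5, the ER Hsp70, was at 0.38 (SE 0.25), Dnajb11 at 0.25 (SE 0.17), the isomerase Pdia3 at 0.23 (SE 0.24) and Sdf2l1 at -0.42 (SE 0.26). Of 12 hypoxia-inducible genes 4 lay above 0 and 8 below, with a median of -0.22, and 0 had an unadjusted p under 0.05 by edgeR or limma-voom. Pgk1 and Ldha, both of glycolysis, were at -0.35 (SE 0.23) and -0.22 (SE 0.22), Car9, a carbonic anhydrase, at -1.67 (SE 1.21) and Egln3, an oxygen sensor, at -1.81 (SE 1.56).

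Relative to Col1a1, the 10 genes were set against the amount of their main client in the same library. Per 1000 Col1a1, each per kb, the 10 genes summed to between 268 and 990 in fibrous libraries and to between 208 and 3824 in bone libraries. Fibrous 5 held the highest fibrous value and bone 4 the highest bone value. Bone 3, 4 and 5, at 2403, 3824 and 2922, lay above all fibrous libraries, and these are also the bone libraries with the least Col1a1, at 154, 59.2 and 162 CPM per kb. Bone 6 lay below all libraries at 208 while its Col1a1, at 1546 CPM per kb, was the median of the 13. It was the lowest library for 7 of the 10 genes on this scale.

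P4ha3 was the only 1 of the 10 with its highest value per 1000 Col1a1 in a fibrous library. Per 1000 Col1a1 it had a lowest, median and highest value of 0.529, 1.71 and 2.44 in fibrous libraries and of 0, 0.819 and 2.29 in bone libraries, with fibrous 1 the highest. Serpinh1 had 155, 190 and 486 in fibrous and 91.9, 408 and 1335 in bone libraries. Fkbp10 had 18.9, 27.6 and 39.8 in fibrous and 8.92, 47.9 and 64.1 in bone libraries, the narrowest range among the 9 genes with no 0 count. P4hb ran from 61.4 to 411 in fibrous and from 95.7 to 2261 in bone libraries. Plod3 ran from 2.86 to 17.1 in fibrous and from 1.85 to 126 in bone libraries, where bone 5 was the highest.

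On the log2 scale relative to Col1a1, fibrous over bone, only P4ha3 lay above 0, at 1.24 (SE 1.37), while 6.32% of all genes did. The other 9 lay below 0, from -0.16 for Fkbp10 (SE 1.18) and -0.39 for P3h1 (SE 1.15) to -1.78 for Plod3 (SE 1.16) and -2.01 for P4hb (SE 1.28). Setting genes against Col1a1 moved the median of all genes to -2.03, and that of the 10 genes was -1.03, of the fibrillar collagens -0.20, of the procollagen maturation list -1.06, of the general ER chaperones -2.02 and of the hypoxia list -2.12. P4hb thus lay at the median of all genes and the other 9 genes above it. By limma 0 of the 10 passed (background 0.0978%), and 0 had an unadjusted p under 0.05 (background 24.3%). Without the 5 libraries low in Lepr the median of the 10 was 0.08, and P4ha2, P3h1, Plod1, Plod2 and Fkbp10 then lay above 0, between 0.06 and 0.36.

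**Figure D4:**
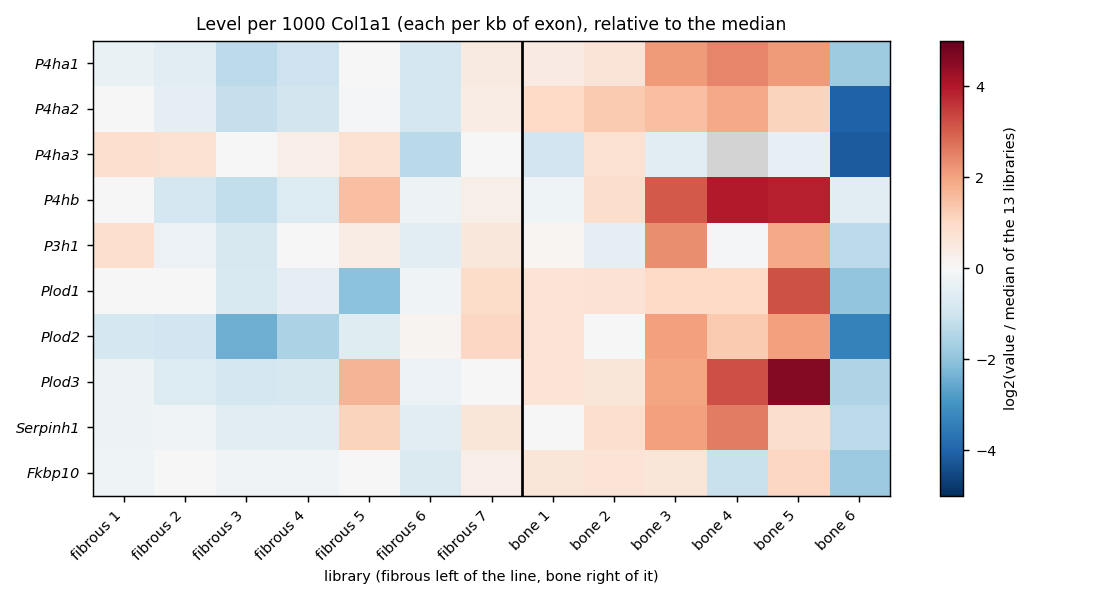
Colours give log2 of each gene's level per 1000 Col1a1 (both per kb of exon) over its median of 13 libraries, fibrous left and bone right of the line; grey marks P4ha3 in bone 4, with 0 counts. Bone 3 to 5 are mostly red and bone 6 blue, with P4hb at 2261 in bone 4 and 95.7 in bone 6 per 1000 Col1a1.

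How closely the genes followed each other was described by the SD over the 13 libraries of the log2 ratio of a pair, in which libraries share depth and cell makeup. The smallest SD among the 10 genes was 0.58 for P4ha1 with Serpinh1, and P4hb with Plod3 had the same value to 2 decimals. P4ha1 was also the closest of the 10 to P4ha2 (0.78), Plod1 (0.93) and Plod2 (0.72). Fkbp10 and P3h1 were closest to each other (0.79), and P4ha3 was closest to Fkbp10 (0.99). P4ha3 was the farthest partner of 8 of the other 9 genes, and Fkbp10 was farthest from P4hb (1.77). Over libraries, the SD of log2 CPM itself was lowest for P4hb (0.62) and highest for P4ha3 (2.73).

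The 10 genes also differed in how much their log2 ratios to Col1a1 and to Col2a1 varied over the libraries. Fkbp10, P3h1, Serpinh1 and P4ha3 had smaller SDs of the log2 ratio to Col1a1, at 0.79, 1.03, 1.11 and 1.37, than to Col2a1, the cartilage collagen, at 1.32, 1.44, 1.65 and 1.66. Plod2, P4ha2 and Plod1 had smaller SDs to Col2a1, at 0.99, 1.11 and 1.15, than to Col1a1, at 1.66, 1.56 and 1.37. P4ha1, with 1.37 to Col1a1 and 1.44 to Col2a1, Plod3, with 1.78 and 1.66, and P4hb, with 1.81 and 1.92, differed less between the 2 collagens. On their own, P4ha1, Plod3 and P4hb varied less (SD of log2 CPM 1.27, 1.10 and 0.62) than their ratios to either collagen. Bone 6 had 10144 CPM of Col1a1 but 256 CPM of Col2a1, and SDs without bone 6 were not computed. These are descriptions over the same 13 libraries, with no test.

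**Figure D5:**
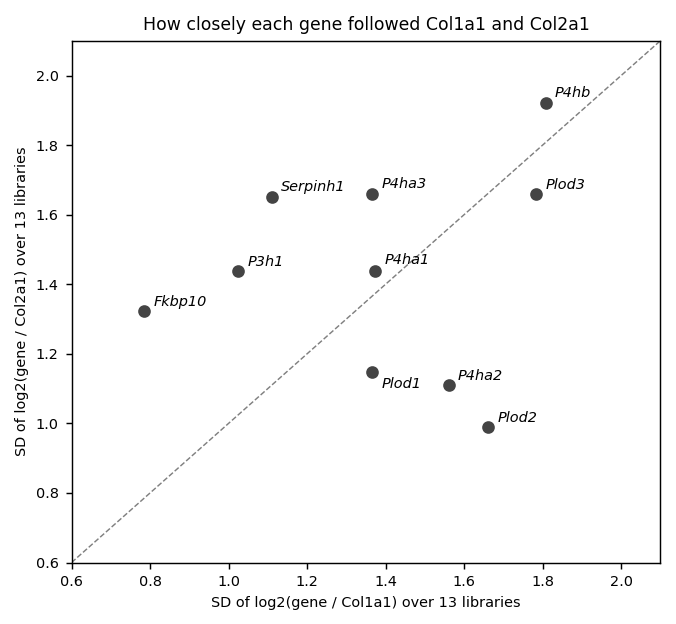
Each point is 1 gene, placed by the SD over 13 libraries of its log2 ratio to Col1a1 (x axis) and to Col2a1 (y axis), so a small value means that this ratio varied little. The dashed line marks equal SDs. Fkbp10 lies far left at 0.79 for Col1a1, and Plod2 lies lowest at 0.99 for Col2a1.

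Among the 13284 tested genes outside the list, those whose levels ran most like the mean of the 10 were Crtap (SD of the log2 ratio 0.40), Fkbp9 (0.44), Maged2 (0.45), Enpp1 (0.47), Rcor2 (0.47) and Trim47 (0.49), where the median gene had 1.84. Crtap is the partner of P3h1 and Fkbp9 a relative of Fkbp10, both in the list of procollagen maturation genes, and Enpp1 makes pyrophosphate, an inhibitor of mineral. Crtap had a lowest, median and highest level of 33.8, 88.4 and 234 CPM in fibrous and of 6.32, 31.6 and 186 CPM in bone libraries.

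A shared name token links fibrous 2 with fibrous 5 and bone 2 with bone 4, in each case a library named plus and one named Lin. P4hb was 2.52 times higher in fibrous 2 than in fibrous 5 and 2.92 times higher in bone 2 than in bone 4. Serpinh1 was 5.43 times higher in the fibrous and 7.64 times higher in the bone pair, and Plod2 10.3 and 10.2 times. Fkbp10 was 13.02 and 87.1 times higher and Plod1 54.8 and 20.8 times, against 13.2 and 25.3 times for Col1a1. P4ha3 was 13.3 times higher in fibrous 2 and at least 35.8 times higher in bone 2, taking 3 counts as the limit in bone 4. All 10 genes were thus higher in the plus library of both pairs, by factors that differed widely between genes, and there are no replicates of such pairs for a test.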

How the data were processed

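The authors deposited 1 matrix of raw counts, whole numbers per mouse Ensembl gene, for 13 libraries. Per the labels' protocols, RNA came from a micro column kit, polyA libraries from an Illumina TruSeq kit and reads from a NovaSeq sequencer. The submitters' processing notes name edgeR and, without saying what each served for, the builds mm10 and hg38. The sources used here do not give the aligner, counter, annotation or strand setting. Groups follow the labels' implant and tissue.

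From the counts, edgeR 4.0.16 (R 4.3.3) fitted all 13294 genes left by filterByExpr, with TMM factors, name series and group as terms, the quasi-likelihood test and Benjamini-Hochberg adjustment with a threshold of 0.05. Normalised CPM use library sizes scaled by the TMM factors, and levels per kb divide by the merged exon length in GENCODE M21. Values relative to Col1a1 are log2 CPM (prior count 2) minus that of Col1a1, fitted with limma 3.58.1. Shares were tested by exact permutation with scipy 1.17.1. DESeq2 1.42.0 and limma-voom were alternatives. The scripts were tested on simulated data. The members, lists, tests and alternatives were chosen with earlier results of these data known. Named are the 10 genes, Col1a1, up to 4 genes per list with the smallest p, Lepr, Col2a1, Ptprc and Hbb-bs, and the 6 genes most like the mean of the 10. Other markers were named after their values were seen. Upstream sequences and their starts are from RefSeq. Counting error limits genes of few counts, such as P4ha3 in bone 3 to 6 (0 to 24 counts).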

Additional observations from a re-analysis of the deposited data

Results flagged for a closer look

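In 4 of 54 sets of libraries tested a single library lay far from the others of its group. Each set was 1 member on 1 scale, or 1 of the 7 share measures, in 1 group. About 1 set in 20 would be picked out by chance if values in a set were normally distributed. Values per 1000 Col1a1 were not put on a log scale, and the sets share libraries. That rate is thus only a rough guide. In fibrous 5, Plod1 was lowest at 2.05 on the log2(normalised CPM + 1) scale, with the next fibrous library at 5.36. Fibrous 5 was also the highest fibrous library per 1000 Col1a1 for P4hb, at 411 against 178 in the next, and for Plod3, at 17.1 against 5.27. In bone 5, Plod1 was the highest at 41.7 per 1000 Col1a1, against 9.26 in the next bone library. Fibrous 5 has Lin in its name, and fibrous 5 and bone 5 are both among the libraries with Lepr under 5 CPM.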

How the results depend on the processing

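The number of the 10 genes past an adjusted p of 0.05 was 0 under every alternative run, both for levels and relative to Col1a1. Over all genes DESeq2 called 169 where edgeR called 0. Relative to Col1a1, 13 genes passed by limma, 20 without name series as a term, and 0 without the Lin-named libraries, without the libraries low in Lepr or with the sum of 6 fibrillar collagens as denominator. Leaving out 1 library gave 0 to 5257 (5257 without bone 1, 178 without bone 6, 116 without fibrous 5), and the cause was not tested. Of the share measures 1 passed. With fewer libraries, 0 did without the Lin-named libraries, without the libraries low in Lepr, within L002 or within XY9274. The smallest exact permutation p possible was 0.0179 without the libraries low in Lepr, 0.00794 within L002 and 0.333 within XY9274. In these settings a measure alone could not pass after adjustment over the 7 measures. Leaving out 1 library gave 1 to 2 share measures that passed, and the P4ha3 share passed each time. Its difference was 6.34 without the Lin-named libraries, 5.75 without those low in Lepr, 8.59 in L002 and 2.43 points in XY9274.

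The median log2 fold change of the 10 genes (0.60) was 0.19 when scores of erythroid and leukocyte markers were covariates, 0.13 in L002, 2.08 in XY9274, 1.53 by limma-voom and 0.34 to 1.44 with 1 library left out, the last without bone 1. Signs turned within L002 alone for P4ha1 (-0.12), P4ha2 (-0.49), P4hb (-0.013), Plod2 (-0.74) and Col2a1 (-0.75), and for the shares of Plod2 (-11.6 points), P4ha2 (-1.998) and Plod3 (2.15). Within XY9274 they turned for Mia2 (-0.087), Dnajb11 (-0.15), Pdia3 (-0.044), Ldha (0.24) and the Plod1 share (-1.03 points). They also turned by limma-voom for Plod3 (0.49), Egln3 (1.71) and Ptprc (0.084), and with 2 cell type scores as covariates for P4ha1 (-0.037) and P4hb (-0.019). P4hb was at -0.049 without the Lin-named libraries. Without those low in Lepr, Plod3 was at 0.26, Sdf2l1 at 0.12 and Col2a1 at -0.11, and relative to Col1a1 P4ha2 was at 0.062, P3h1 at 0.36, Plod1 at 0.13, Plod2 at 0.12 and Fkbp10 at 0.089. Against 6 collagens Fkbp10 was at 0.15. With 1 library left out, the sign turned within the ranges -0.22 to 1.37 for Col2a1, -0.054 to 0.31 for P4hb, -0.21 to 1.39 for Plod2, -0.33 to 0.53 for Plod3, -0.43 to 7.11 points for the Plod2 share and, relative to Col1a1, -0.53 to 0.13 for Fkbp10 and -0.77 to 0.020 for P3h1. None of these values passed its test.

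No paired analysis was possible because the replicate numbers follow accession order and the labels give no number that pairs a fibrous with a bone library. Whether libraries that share a name token share an animal is not stated, and the low counts of bone 4 limit shares there.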

Other observations

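Hbb-bs, an adult beta-globin gene, had a lowest, median and highest level of 3216, 31856 and 133979 CPM in fibrous libraries and of 588, 36981 and 367247 CPM in bone libraries. Ptprc, the pan-leukocyte gene CD45, lay at 7.73, 12.0 and 149 CPM in fibrous and at 0, 43.0 and 441 CPM in bone libraries. Lineage-negative sorting usually removes cells with surface markers of both kinds. Col2a1 lay at 1351, 10567 and 38370 CPM in fibrous and at 204, 3007 and 32024 CPM in bone libraries, and its log2 fold change was 0.30 (SE 1.21, adjusted p = 0.975 by edgeR).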
